A study of Sus scrofa with 6 samples.

Results

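The natriuretic peptide system was examined in the ampulla of the pig (Sus scrofa) oviduct through 7 genes: the peptide genes NPPC, NPPA and NPPB, the receptor genes NPR1, NPR2 and NPR3, and PRKG1, which encodes a protein kinase activated by cyclic GMP. They were chosen by symbol, and all 7 had a row among the 35670 Ensembl genes of the deposited table. The ampulla is the part of the oviduct where eggs are fertilised. Polyadenylated RNA was counted in 3 libraries of female post-ovulatory tissue and in 3 of female early luteal tissue, and the comparison is between these 2 stages. The labels give no breed, age, treatment or animal identity for either stage, and nothing states whether different animals gave the replicates. The p-values are therefore about the variation among these libraries, which could be technical.

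C-type natriuretic peptide, the product of NPPC, binds NPR2, a membrane guanylyl cyclase that makes cyclic GMP from GTP. Atrial and B-type natriuretic peptides, the products of NPPA and NPPB, are hormones of the heart and act on the related cyclase NPR1. NPR3 has no cyclase domain, binds all of these peptides and removes them from the tissue, and is therefore called the clearance receptor. In ovarian follicles, C-type peptide from granulosa cells keeps the oocyte in meiotic arrest through NPR2 on cumulus cells, and in the mouse oviduct the peptide of the ampulla has been described as an attractant of sperm.

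The receptor genes and PRKG1 were counted in every library, whereas the peptide genes were at the edge of detection. NPPC was counted in each post-ovulatory library and in no early luteal one, and NPPB showed the reverse. NPR1 and NPR2 had a lower mean and NPR3 and PRKG1 a higher mean in early luteal tissue. None of these differences passed the threshold (an adjusted p of 0.05), and in each of the 4 genes abundant enough to be tested the libraries of the stages overlapped (they did not in 17.2% of all tested genes). The test was edgeR's quasi-likelihood test with Benjamini-Hochberg adjustment over all genes, which called 0% of the 17920 genes tested (0 genes, with 7.11% at an unadjusted p under 0.05).

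Library totals ran from 7370723 to 30954222 counts. On the first principal component early luteal replicate 2 scored 176 and the others -51.0 to 2.39. Early luteal replicate 1 was closer to post-ovulatory replicates 2 and 3 than to its own stage. Over the tested genes its Pearson r was 0.9405 and 0.945 with those 2, and 0.822 and 0.921 with early luteal replicates 2 and 3. Markers of oviduct epithelium were present in every library, among them the ciliated cell factor FOXJ1 (79.1 to 652 CPM) and the epithelial adhesion molecule EPCAM (384 to 1090 CPM). CPM here means counts over the library total times 1000000, and TMM is a normalisation of those totals that corrects for a few genes taking a large share of a library. Levels are given after TMM scaling, and as raw CPM, without it, for the sparse peptide genes.

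NPPC (ENSSSCG00000026852, chr15:132504669-132509688 in Sscrofa11.1) encodes the precursor of C-type natriuretic peptide. It received 4, 2 and 4 counts in post-ovulatory replicates 1, 2 and 3, and 0 counts in each early luteal replicate. Over a stage that is 10 counts in 53041217, or 0.189 raw CPM (95% Poisson interval 0.0904 to 0.347, counting error only), against 0 in 37183681, which allows up to 0.0807 (the floor of 3 counts over the group). Set against that floor, and with the post-ovulatory count taken as it stands, post-ovulatory tissue was at least 2.34-fold higher. The lower limit of the post-ovulatory interval lay just above the floor. The bound was 1.45-fold without early luteal replicate 1 and 1.41-fold without early luteal replicate 3. The stages did not overlap in these counts, but library by library the intervals did: post-ovulatory replicate 3, the deepest library, reached down to 0.0352, and the floor of 3 counts in early luteal replicate 2 was 0.360. NPPC did not pass the filter on low counts. With no filter, edgeR's quasi-likelihood test gave an unadjusted p of 0.0368 (adjusted p = 0.688), and DESeq2 an unadjusted p of 0.171.

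Among the 3967 genes with 5 to 15 counts in all, a range set after the counts of NPPC were known, 1.89% were likewise counted in every post-ovulatory library and in no early luteal one. Granulosa and cumulus cells, which make the peptide and its receptor in the follicle, were checked through 7 markers with a row. The follicle-stimulating hormone receptor gene FSHR was at 0 in all 6 libraries, and INHA, a subunit of inhibin, lay at 0.514 CPM or below. INHBA, another inhibin subunit, stood at 5.64, 3.905 and 1.98 CPM in post-ovulatory and 1.54, 0 and 1.59 CPM in early luteal replicates. Its stages were apart, with early luteal tissue below, as in 9.57% of all tested genes (adjusted p = 0.719, edgeR's quasi-likelihood test). AMH (0.797 against 0.389 CPM) and the untested TNFAIP6 (0.887 against 0.260 CPM) had higher post-ovulatory means, with overlap. HAS2 did not exceed 0.135 CPM. The summed level of the 7 markers was 16.0 to 25.3 CPM in post-ovulatory and 6.62 to 142 CPM in early luteal libraries, with PTX3 at 9.58 to 21.1 and 3.15 to 142 CPM, a secreted pentraxin that other cells make too. The part of these cells in the NPPC counts was not tested.

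NPPA (ENSSSCG00000061442, chr6:71919557-71921345) encodes the precursor of atrial natriuretic peptide. It received 2 counts in post-ovulatory replicate 1 and 0 in each of the other 5 libraries. Both stages were below the floor, so no fold is given.

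NPPB (ENSSSCG00000003431, chr6:71930374-71931843) encodes the precursor of B-type natriuretic peptide and is the right-hand neighbour of NPPA, 9028 bases away. It received 0 counts in each post-ovulatory library, and 1, 11 and 15 counts in early luteal replicates 1, 2 and 3. The counts lay mostly in replicates 2 and 3, at 1.32 (95% Poisson interval 0.658 to 2.36) and 1.01 (0.568 to 1.67) raw CPM, while replicate 1 held 0.0711 (0.0018 to 0.396). The interval of replicate 1 lay below the floor of 3 counts in post-ovulatory replicate 2 (0.407). It reached above the floors in post-ovulatory replicates 1 (0.204) and 3 (0.0969). Over the stage NPPB had 27 counts in early luteal and 0 in post-ovulatory tissue. The first is 0.726 raw CPM (0.479 to 1.06, counting error only, which leaves out the spread among the replicates). The second is 0 raw CPM, which allows up to 0.0566 (the floor of 3 counts over the group). Against that floor, and with the early luteal count taken as it stands, NPPB was at least 12.8-fold higher. The bound was 19.9-fold without early luteal replicate 1 and 5.35-fold without post-ovulatory replicate 3.

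NPPB did not pass the filter on low counts either. With no filter, edgeR's quasi-likelihood test gave an unadjusted p of 0.00743 and an adjusted p of 0.671, and DESeq2 an unadjusted p of 0.00414 with no adjusted p. Of the 2348 genes with 20 to 40 counts in all, a range set after the counts of NPPB were known, 0.596% were counted in every early luteal library and in no post-ovulatory one. Markers of heart muscle, the main source of this peptide in the body, were looked at beside NPPB. The troponin gene TNNT2 stood at 0, 0 and 0.255 CPM in post-ovulatory and 0.129, 0 and 0.199 CPM in early luteal replicates, and the atrial myosin gene MYH6 at 1.03, 0.811 and 0.265 CPM in the early luteal replicates against 14.0, 0.252 and 2.30 CPM. ACTC1, also a heart muscle marker, did not exceed 0.252 CPM in any library. The 4 heart muscle markers with a row summed to 89.95 to 106 CPM in post-ovulatory and 44.5 to 146 CPM in early luteal libraries. TNNI3, another troponin gene, made up most of the sum in each library, at 81.7, 89.5 and 103 CPM in post-ovulatory and 82.7, 43.6 and 146 CPM in early luteal replicates. It was highest in early luteal replicate 3, with the most NPPB counts (15, 1.01 raw CPM). It was lowest in early luteal replicate 2, with the highest NPPB level (11 counts, 1.32 raw CPM). The part of these markers in the NPPB counts was not tested.

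**Figure D1:**
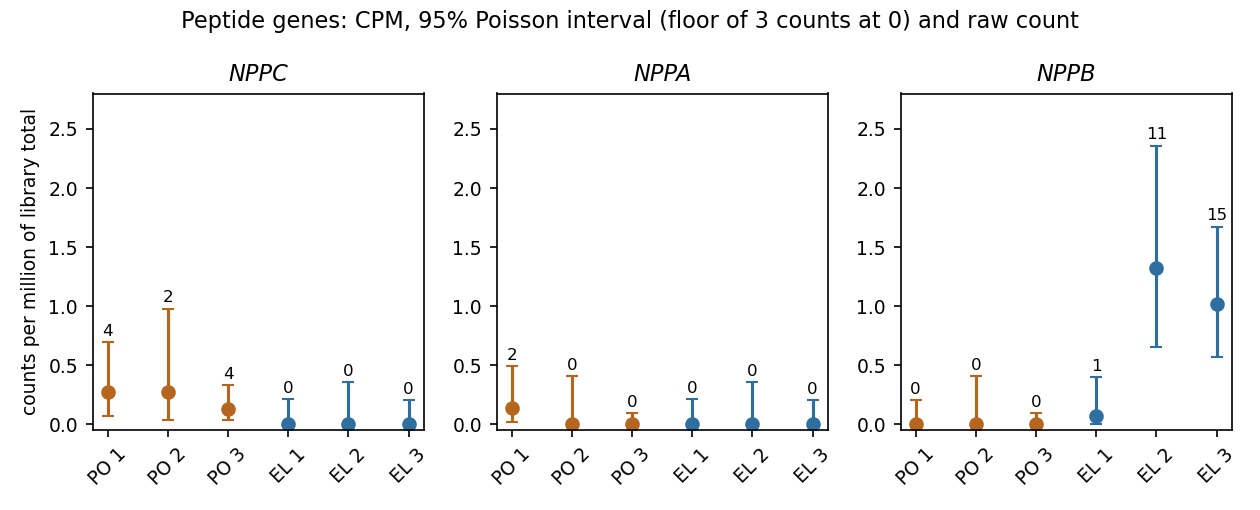
Raw CPM, the counts over the library total times 1000000 (vertical axis), for the 3 peptide genes in each post-ovulatory (PO, brown) and early luteal (EL, blue) library, with 95% Poisson intervals as bars (at 0 counts, up to the floor of 3 counts) and the raw count as a number above each bar. NPPC has 2 to 4 counts in the post-ovulatory libraries, NPPA 2 counts in 1 library, and NPPB 11 and 15 counts in early luteal replicates 2 and 3.

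NPR2 (ENSSSCG00000005322, chr1:236508994-236529172) encodes guanylyl cyclase B, the receptor of C-type peptide. It stood at 17.2, 54.8 and 28.4 CPM in post-ovulatory replicates 1, 2 and 3, and at 28.5, 13.9 and 26.5 CPM in the early luteal replicates. Post-ovulatory replicate 2 was the highest library and early luteal replicate 2 the lowest, with the other 4 between them and the stages interleaved. The means were 33.5 ± 19.3 and 23.0 ± 7.91 CPM (SD, n = 3), a log2 fold change of -0.53 ± 0.48 (SE; early luteal over post-ovulatory, as throughout; edgeR's quasi-likelihood test, adjusted p = 0.803). Without post-ovulatory replicate 2 the log2 fold change was 0.00029. SPAG8, a sperm-associated gene that overlaps NPR2 in the RefSeq annotation, was counted separately at 56.5 to 123 CPM. Which strand was counted is not given in the sources used, so reads in the overlap may have been assigned to either gene or dropped.

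NPR1 (ENSSSCG00000006572, chr4:95957220-95974253) encodes guanylyl cyclase A, the receptor of the atrial and B-type peptides, known from endothelium and vascular smooth muscle. It stood at 9.21, 23.6 and 13.8 CPM in post-ovulatory and at 17.7, 6.08 and 7.63 CPM in early luteal replicates 1, 2 and 3. The same library led as for NPR2, post-ovulatory replicate 2, and early luteal replicate 2 was again lowest. The means were 15.5 ± 7.33 and 10.5 ± 6.29 CPM (SD, n = 3), with a log2 fold change of -0.56 ± 0.55 (SE; edgeR's quasi-likelihood test, adjusted p = 0.823). Single libraries moved it: it was -1.15 without early luteal replicate 1 and -0.15 without post-ovulatory replicate 2.

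The 7 endothelial markers with a row summed to 355, 546 and 416 CPM in post-ovulatory and 506, 562 and 392 CPM in early luteal replicates. Per 1000 CPM of these markers, NPR1 stood at 26.0, 43.1 and 33.1 CPM in post-ovulatory and at 34.9, 10.8 and 19.5 CPM in early luteal replicates. Early luteal replicate 2 had the highest marker sum and the lowest NPR1. Most of the sum in that library came from EMCN, an endothelial sialomucin (433 CPM). PLVAP, a protein of endothelial fenestrae, was at 5.14 CPM there and at 21.2 to 62.2 CPM in the other libraries. PLVAP, PECAM1 and CDH5 were, as NPR1 was, highest in post-ovulatory replicate 2 (62.2, 87.6 and 58.45 CPM) and lowest in early luteal replicate 2 (5.14, 12.4 and 14.9 CPM). TEK was also highest in post-ovulatory replicate 2 (36.0 CPM), but lowest in post-ovulatory replicate 1 (13.4 CPM). KDR and CLDN5 were highest in early luteal replicate 1 (110 and 9.70 CPM), and CLDN5 was lowest in early luteal replicate 2 (0 CPM). The sum therefore does not stand for each marker. On this relative scale the mean log2 difference was -0.78, and an exact two-sided permutation test gave p = 0.3, where 3 against 3 cannot go below 0.1. In bulk tissue, fewer cells of a type and less RNA per cell cannot be told apart.

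NPR3 (ENSSSCG00000036201, chr16:18841540-18929813) encodes the clearance receptor, which also signals through inhibitory G proteins. It stood at 9.95, 8.44 and 11.3 CPM in post-ovulatory replicates and at 13.9, 29.3 and 9.88 CPM in early luteal ones. The post-ovulatory libraries lay close together, and the early luteal mean was carried by replicate 2, the library that stood apart over all genes. The means were 9.89 ± 1.43 and 17.7 ± 10.3 CPM (SD, n = 3). The log2 fold change was 0.83 ± 0.48 (SE; edgeR's quasi-likelihood test, adjusted p = 0.726), and 0.26 ± 0.33 without early luteal replicate 2 (adjusted p = 0.836, edgeR). With sample quality weights in limma voom it was 0.10. A long noncoding RNA gene, LOC102162488, overlaps NPR3 in the RefSeq annotation.

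PRKG1 (ENSSSCG00000010429, chr14:97558531-98793080) encodes the cyclic GMP-dependent protein kinase that relaxes smooth muscle. It stood at 8.02, 18.8 and 5.04 CPM in post-ovulatory and at 3.28, 30.8 and 26.5 CPM in early luteal replicates 1, 2 and 3. Early luteal tissue held both the lowest library and the highest ones. The means were 10.6 ± 7.22 and 20.2 ± 14.8 CPM (SD, n = 3), with a log2 fold change of 0.94 ± 0.80 (SE; edgeR's quasi-likelihood test, adjusted p = 0.800). Leaving out early luteal replicate 1 gave 1.47 and leaving out early luteal replicate 2 gave 0.50. Leaving out post-ovulatory replicate 2 gave 1.63 and leaving out post-ovulatory replicate 3 gave 0.62. CSTF2T lies within the span of PRKG1 and was counted separately (59.6 to 91.0 CPM).

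**Figure D2:**
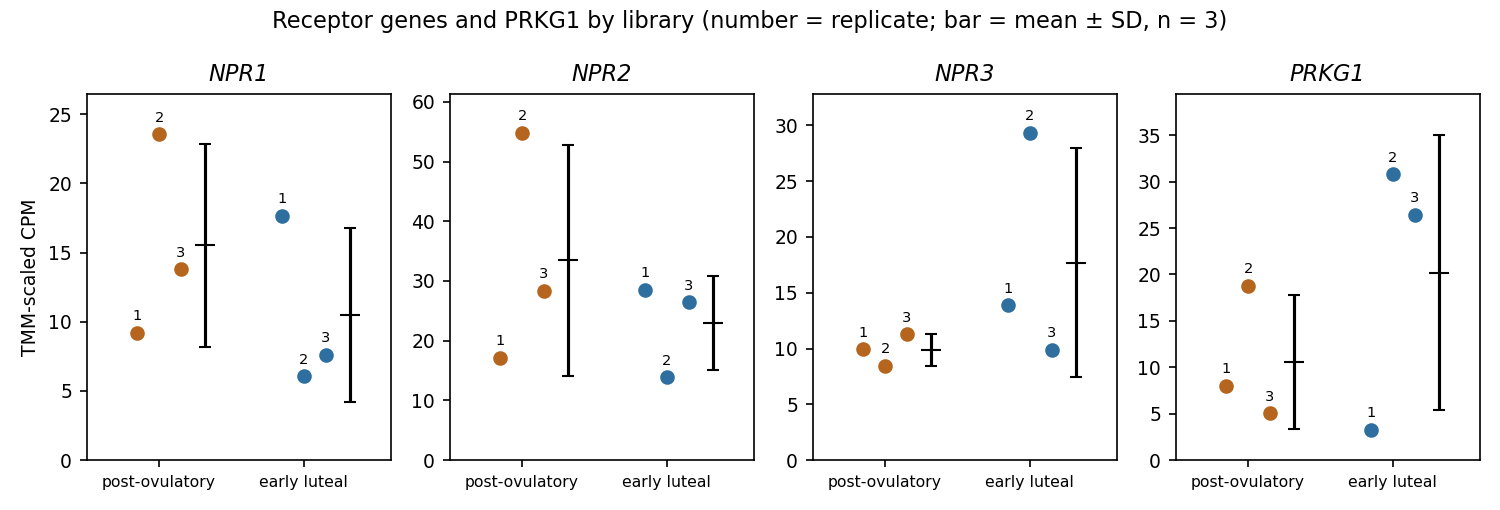
TMM-scaled CPM (vertical axis, from 0, own scale per gene) of NPR1, NPR2, NPR3 and PRKG1 in the post-ovulatory (brown) and early luteal (blue) libraries, numbered by replicate, with the mean and SD of each stage (n = 3) in black. The stages overlap in each gene, and early luteal replicate 2 is lowest in NPR1 and NPR2 and highest in NPR3 and PRKG1.

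**Figure D3:**
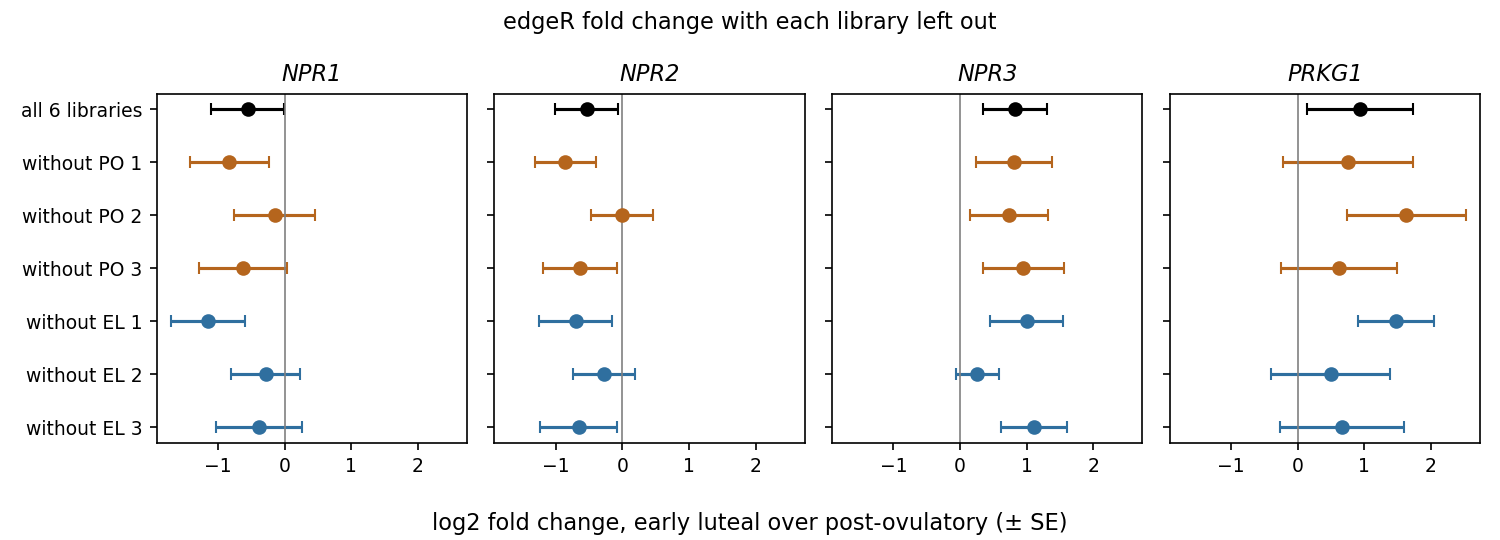
Log2 fold change of early luteal over post-ovulatory tissue with its SE (horizontal axis) from all 6 libraries (black) and with each post-ovulatory (PO, brown) or early luteal (EL, blue) library left out. NPR2 moves from -0.53 to 0.00029 without post-ovulatory replicate 2, and NPR3 from 0.83 to 0.26 without early luteal replicate 2.

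The summed smooth muscle markers moved with PRKG1 from library to library. The 8 markers, which include the smooth muscle myosin MYH11, summed to 3324, 5785 and 2963 CPM in post-ovulatory and to 1043, 6951 and 9647 CPM in early luteal replicates 1, 2 and 3. The 3 libraries with the highest sum were also the 3 with the highest PRKG1, and early luteal replicate 1 was lowest in both. MYH11 made up much of the sum (4128 CPM in early luteal replicate 2). Each of the 8 markers was lowest in early luteal replicate 1, but not all followed PRKG1 elsewhere. CNN1 was lower in early luteal replicate 2 (261 CPM) than in post-ovulatory replicates 1 and 2 (284 and 347 CPM). Per 1000 CPM of these markers PRKG1 stood at 2.41, 3.25 and 1.70 CPM in post-ovulatory and at 3.14, 4.43 and 2.74 CPM in early luteal replicates, so that its 9.40-fold range over the libraries became a 2.61-fold one. The mean log2 difference on this scale was 0.51 (exact two-sided permutation test, p = 0.3). Of the 8 markers, 7 had a positive fold change, and edgeR's quasi-likelihood test called 0, with a median log2 fold change of 0.58 against -0.03 over all tested genes.

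**Figure D4:**
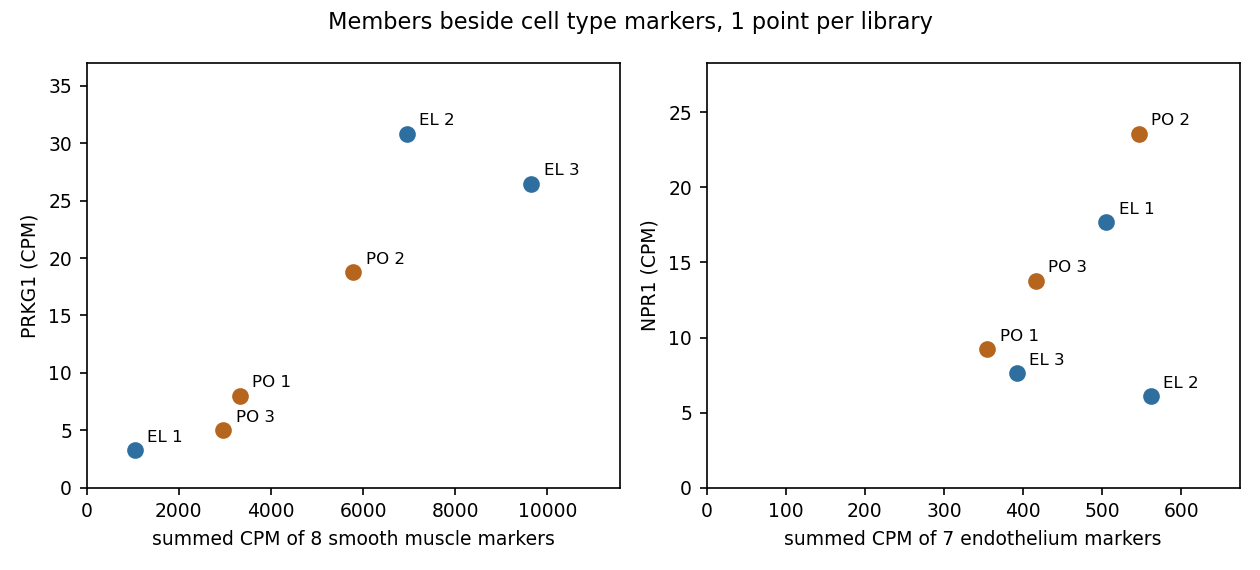
Level of PRKG1 against the summed CPM of 8 smooth muscle markers (left) and of NPR1 against that of 7 endothelial markers (right), 1 point per post-ovulatory (PO, brown) or early luteal (EL, blue) library, both axes from 0. PRKG1 runs from 3.28 CPM at a sum of 1043 to 30.8 CPM at 6951. Early luteal replicate 2 has the lowest NPR1 at the highest endothelial sum, most of which is EMCN in that library.

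The balance between clearance and signalling receptors was followed as log2 ratios within a library, which need no gene length when compared between stages. NPR3 to NPR1 stood at 0.11, -1.47 and -0.29 in post-ovulatory and at -0.35, 2.25 and 0.37 in early luteal replicates. NPR3 to NPR2 stood at -0.78, -2.68 and -1.32 against -1.03, 1.07 and -1.41. In both ratios early luteal replicate 2 was highest and post-ovulatory replicate 2 lowest, and the other 4 libraries interleaved. The ratio of the cyclases to each other was steadier, with NPR1 to NPR2 at -0.89, -1.21 and -1.04 against -0.69, -1.18 and -1.78. Early luteal minus post-ovulatory differences were 1.31, 1.14 and -0.17 for the 3 ratios in that order, with p = 0.3, 0.5 and 0.8 in exact two-sided permutation tests (Benjamini-Hochberg adjusted over the 3: 0.75, 0.75 and 0.8). The first was 0.56 and the second 0.37 without early luteal replicate 2, and they were 0.85 and 0.59 without post-ovulatory replicate 2. Levels of different genes are not ranked here, since no transcript lengths were used.

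For each receptor and PRKG1, the 3 genes with the most similar levels over the 6 libraries were taken by Pearson r of log2 CPM among 12782 genes with a symbol, as a description over libraries of both stages. NPR2 ran closest to DENND1A (r = 0.991), HSD11B1L (0.989) and NDUFAF6 (0.980). NPR1 ran closest to SLC9A5 (0.986), the interleukin receptor subunit IL18R1 (0.985) and PHF11 (0.984). NPR3 ran closest to ZC2HC1A (0.993), the metalloreductase STEAP4 (0.991) and the intraflagellar transport gene IFT20 (0.989), each with its highest level in early luteal replicate 2. PRKG1 ran closest to CALD1 (0.990), which encodes caldesmon, an actin-binding protein of smooth muscle, then to C3orf70 (0.989) and MSRB3 (0.988). With 6 libraries, between 123 genes (for PRKG1) and 343 genes (for NPR3) had an r over 0.9.

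Other genes that make, break down or answer to cyclic GMP were taken from lists of 57 genes with a row, of which 45 passed the filter on low counts. Of these 45, 0 passed the threshold over all genes in edgeR's quasi-likelihood test. At an unadjusted p under 0.05, 4 were higher and 2 lower in early luteal tissue, 8.89% and 4.44% of the 45, where all tested genes gave 3.57% and 3.54%. In 6 of the 45 the stages did not overlap (13.3%, against 17.2% of all tested genes). Early luteal tissue was above in 2 of them (4.44%, against 7.61%) and below in 4 (8.89%, against 9.57%). The median log2 fold change was -0.16, against -0.03 over all tested genes. Fold changes were positive in 21 and negative in 24 of the 45, against 8634 and 9286 of all 17920 tested genes.

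Soluble guanylyl cyclase, the nitric oxide receptor that makes cyclic GMP in the cytosol, was represented by GUCY1A1 and GUCY1B1. GUCY1A1 stood at 113, 97.9 and 112 CPM in post-ovulatory and at 103, 266 and 146 CPM in early luteal replicates (log2 fold change 0.67 ± 0.36, SE; 0.21 without early luteal replicate 2). GUCY1B1 stood at 96.8, 61.1 and 80.2 against 33.9, 145 and 117 CPM. Early luteal replicate 2 was the highest library in both, as it was in PRKG1. The third subunit gene, GUCY1A2, was at 1.26 CPM or below in each library and was not tested. Among the other membrane cyclases, GUCY2C, the guanylin receptor, had means of 1.83 ± 0.806 CPM in post-ovulatory and 1.92 ± 1.63 CPM in early luteal tissue, and GUCY2D means of 1.43 ± 0.844 and 0.867 ± 0.811 CPM (SD, n = 3). The ligand genes GUCA2A, GUCA2B and OSTN, the last a peptide that binds NPR3, did not exceed 0.297 CPM in any library.

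Nitric oxide synthases, whose product activates the soluble cyclase, had negative fold changes in 3 of 3 genes, with 0 past the threshold (edgeR's quasi-likelihood test). Of all 17920 tested genes 9286 had a negative fold change. NOS1, the neuronal enzyme, stood at 49.2, 61.6 and 151 CPM in post-ovulatory and at 34.2, 36.8 and 53.8 CPM in early luteal replicates (log2 fold change -1.07 ± 0.44, SE; unadjusted p = 0.0413, adjusted p = 0.685). Without post-ovulatory replicate 3 it was -0.40 (unadjusted p = 0.298, edgeR). Post-ovulatory replicate 3 was far above the rest, and the stages overlapped only through early luteal replicate 3 and post-ovulatory replicate 1. NOS2, the inducible enzyme, had means of 6.43 ± 3.32 and 3.87 ± 1.74 CPM (SD, n = 3), and NOS3, the endothelial one, 4.66 ± 3.27 and 3.33 ± 0.629 CPM. The log2 fold change of NOS3 was -0.47, and 0.26 without post-ovulatory replicate 2.

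Enzymes that process or degrade natriuretic peptides had 6 of 8 fold changes below 0, where 9286 of all 17920 tested genes did. Their median log2 fold change was -0.47 (-0.03 over all tested genes), with 0 past the threshold (edgeR's quasi-likelihood test). CORIN, the membrane protease that cleaves the precursor of atrial peptide, stood at 33.9, 2.77 and 36.0 CPM in post-ovulatory and at 5.20, 2.70 and 2.12 CPM in early luteal replicates. Post-ovulatory replicates 1 and 3 were far above the other 4 libraries, and post-ovulatory replicate 2 lay among the early luteal ones. Its log2 fold change was -2.85 ± 0.87 (SE; unadjusted p = 0.0103, adjusted p = 0.655 in edgeR's quasi-likelihood test, adjusted p = 0.0353 in DESeq2, which called 1.02% of 17285 genes). OVGP1, the oviductal glycoprotein of secretory cells, had the same 2 libraries on top, at 7283, 156 and 10660 CPM in post-ovulatory and 291, 1015 and 2350 CPM in early luteal replicates. Of the other secretory epithelium markers, KRT18 also had these 2 on top (125 and 113 CPM). EPCAM was highest in early luteal replicate 2 (1090 CPM) and KRT7 in early luteal replicate 1 (582 CPM). KRT8 was highest in post-ovulatory replicate 3 (631 CPM) and next in early luteal replicate 1 (482 CPM). The part of secretory cells in the CORIN difference was not tested.

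MME, the neprilysin that degrades natriuretic peptides, stood at 85.5, 25.2 and 55.2 CPM in post-ovulatory and at 108, 108 and 59.5 CPM in early luteal replicates (log2 fold change 0.73 ± 0.45, SE). DPP4, a dipeptidyl peptidase that trims B-type peptide, stood at 2.23, 4.91 and 4.78 against 3.73, 17.7 and 15.1 CPM (log2 fold change 1.61 ± 0.66, SE; unadjusted p = 0.0400, adjusted p = 0.685, edgeR's quasi-likelihood test). The unadjusted p was 0.112 without early luteal replicate 2, 0.114 without early luteal replicate 3 and 0.120 without post-ovulatory replicate 1. Its high libraries were early luteal replicates 2 and 3, which held most of the NPPB counts. These libraries were also the highest in PRKG1 and KCNMA1, and a link between DPP4 and NPPB was not tested. ECE1, the endothelin-converting enzyme, stood at 42.4, 51.2 and 43.5 against 34.1, 13.5 and 34.4 CPM, with the stages apart (adjusted p = 0.706, edgeR's quasi-likelihood test).

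Phosphodiesterases hydrolyse cyclic nucleotides. Genes listed under that name had 7 positive and 5 negative fold changes among 12 tested genes, 0 of them past the threshold (edgeR's quasi-likelihood test). PDE5A, the cyclic GMP-specific enzyme of smooth muscle, stood at 91.3, 130 and 79.9 CPM in post-ovulatory and at 69.6, 264 and 167 CPM in early luteal replicates. The order of the 6 libraries was that of PRKG1. PDE3A, whose hydrolysis of cyclic AMP is inhibited by cyclic GMP, had means of 66.7 ± 21.9 and 76.5 ± 25.3 CPM (SD, n = 3). PDE6D, listed by its symbol and not a catalytic subunit, had means of 24.7 ± 3.91 and 15.5 ± 7.81 CPM, and PDE11A 0.793 ± 0.304 and 1.68 ± 0.886 CPM.

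Effectors of cyclic GMP and substrates of its kinase had 8 positive and 6 negative fold changes among 14 tested genes, and edgeR's quasi-likelihood test called 0 of them. RGS2, a regulator of G protein signalling that the kinase activates, stood at 55.7, 129 and 32.3 CPM in post-ovulatory and at 201, 275 and 296 CPM in early luteal replicates. Each early luteal library lay above each post-ovulatory one, 3.57-fold on average (log2 fold change 1.84 ± 0.49, SE; adjusted p = 0.631, edgeR; adjusted p = 0.0382 in DESeq2, which called 1.02% of 17285 genes). ITPR1, the inositol trisphosphate receptor, was likewise apart, at 20.9, 57.95 and 27.5 against 73.0, 139 and 96.0 CPM (log2 fold change 1.54 ± 0.43, SE; adjusted p = 0.632, edgeR; 0.0868, DESeq2). The log2 fold change of RGS2 was 2.54 without post-ovulatory replicate 2 and 1.50 without post-ovulatory replicate 3. The part of smooth muscle in these differences was not tested.

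KCNMA1, the large-conductance potassium channel that the kinase opens, stood at 18.9, 25.3 and 20.9 CPM in post-ovulatory and at 24.2, 87.8 and 115 CPM in early luteal replicates. Here early luteal replicate 1 lay among the post-ovulatory libraries (log2 fold change 1.80 ± 0.52, SE; adjusted p = 0.644, edgeR's quasi-likelihood test). PPP1R12A, the myosin phosphatase subunit that the kinase binds, had means of 291 ± 81.2 and 468 ± 217 CPM (SD, n = 3), and the transcription factor GTF2I 181 ± 4.62 and 190.5 ± 16.2 CPM. Of the G protein and phospholipase genes through which NPR3 can signal, PLCB3 stood at 54.4, 58.1 and 55.8 against 39.1, 41.8 and 44.6 CPM and GNAI2 at 386, 349 and 340 against 291, 269 and 326 CPM. In both the early luteal libraries lay below the post-ovulatory ones, with adjusted p = 0.716 and 0.801 (edgeR's quasi-likelihood test). GNAI1 had means of 57.1 ± 6.73 and 76.6 ± 29.1 CPM (SD, n = 3) and GNAI3 107 ± 19.0 and 96.0 ± 20.8 CPM.

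**Figure D5:**
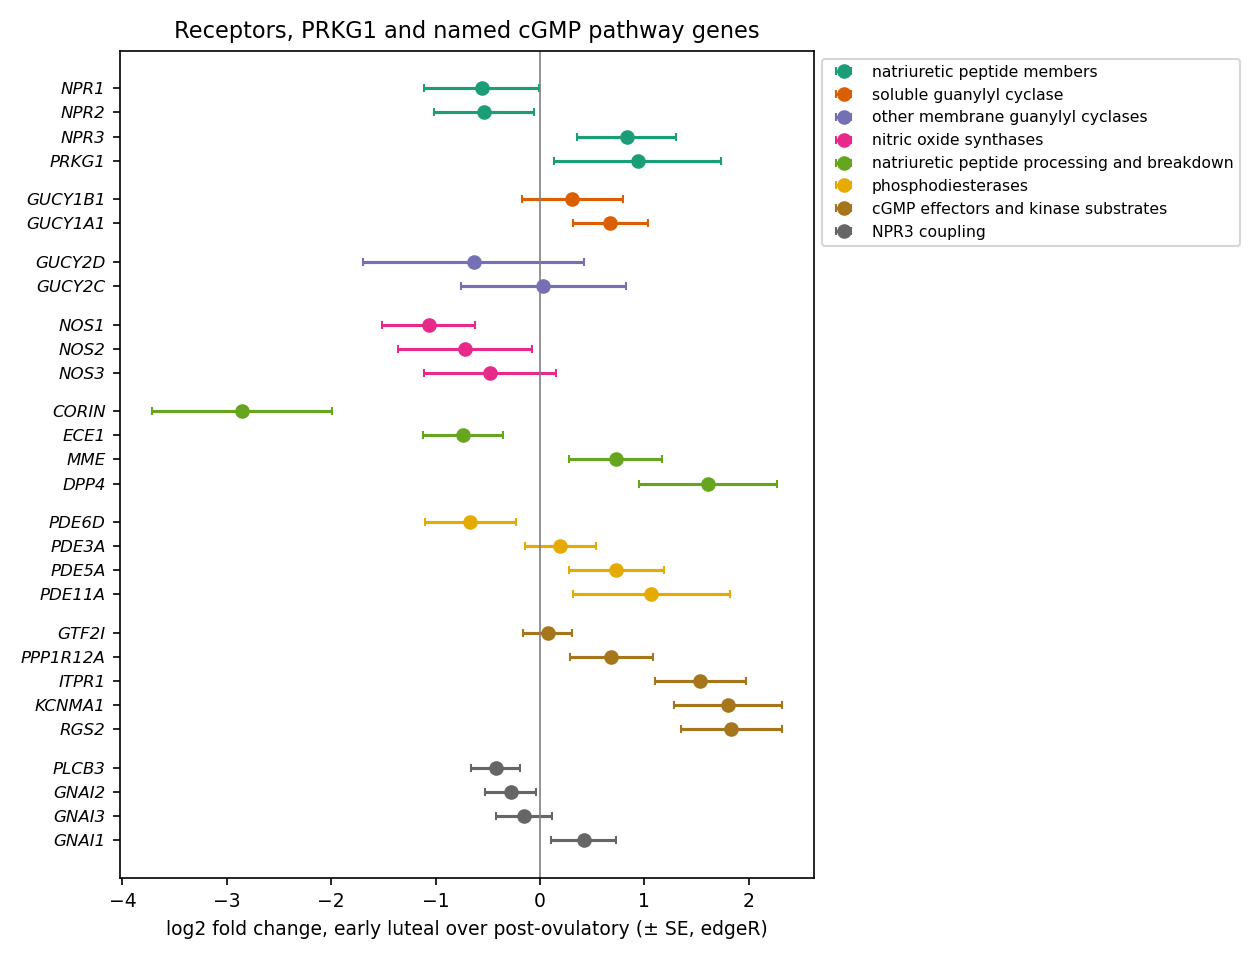
Log2 fold change of early luteal over post-ovulatory tissue with its SE (horizontal axis, edgeR) for the tested receptors, PRKG1 and the named genes of the cyclic GMP pathway, coloured by list. CORIN lies lowest at -2.85 and RGS2 highest at 1.84, and 0 of the genes shown passed the threshold.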

How the data were processed

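Per the labels' protocols, stranded libraries of polyadenylated RNA were made from total RNA of ampulla tissue and sequenced paired-end (NextSeq2000). The submitters' processing notes name STAR, Trim Galore, FastQC 0.11.4 and the build Sscrofa11.1. How reads were counted, on which strand and with which annotation is not given in the sources used. The authors deposited whole-number counts per Ensembl gene without normalization. The header lacks a tab, so columns were matched to samples by the order of its words. The header word of early luteal replicate 3 lacks a letter of that sample's description, and it matches no other sample.

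Symbols came from a table of Ensembl identifiers (15623 matched) and coordinates from RefSeq's annotation of Sscrofa11.1. Counts of all genes were tested with edgeR 4.0.16 (R 4.3.3; TMM, filterByExpr, robust quasi-likelihood test, two-sided, Benjamini-Hochberg adjustment, threshold 0.05). The SE was obtained from the fold change and its F statistic. Of the 7 members 4 passed the filter. Alternatives were other scalings and filters, the replicate block, left-out libraries, DESeq2 1.42.0 and limma 3.58.1. On simulated counts of 17920 genes for this comparison, edgeR recovered, of 50 genes each, 1 with a 2-fold change, 20 with a 4-fold one, 33 with an 8-fold one and 37 with a 16-fold one.

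Members and lists were chosen with earlier results of these data known. The text names, from each pathway list, the 3 tested genes with the lowest unadjusted p and the 2 with the highest mean CPM, and cell type markers only beside a result they bear on. SPAG8 and CSTF2T are named as overlapping genes. GUCY1A2, GUCA2A, GUCA2B and OSTN, untested, were named after their values were seen.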

Additional observations from a re-analysis of the deposited data

How the results depend on the processing

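No alternative brought NPR1, NPR2, NPR3 or PRKG1 past the threshold (15 alternatives each, lowest adjusted p 0.393), and every direction held except that of NPR2 with post-ovulatory replicate 2 left out. With 1 library left out in turn, log2 fold changes ran from -0.86 to 0.00029 for NPR2, -1.15 to -0.15 for NPR1, 0.26 to 1.10 for NPR3 and 0.50 to 1.63 for PRKG1. The lowest value for NPR3 over all alternatives was 0.10, with limma voom and sample quality weights. Ratio differences ran from 0.56 to 1.86 for NPR3 to NPR1, from 0.37 to 1.61 for NPR3 to NPR2 and from -0.43 to 0.11 for NPR1 to NPR2, the lower bound for NPPB from 5.35-fold to 19.9-fold and that for NPPC from 1.41-fold to 3.37-fold. Over all genes, edgeR called 0 of 17920, edgeR without a filter 8 of 30048 and limma voom with sample quality weights 9 of 17920. DESeq2 called 177 of 17285 (1.02%), and 2 of the 45 tested pathway genes (CORIN and RGS2). With the replicate block, the log2 fold changes were -0.42 for NPR2, -0.63 for NPR1, 0.68 for NPR3 and 0.64 for PRKG1, and 0 genes were called. The replicate numbers were not taken to pair the libraries, since no source used says that they do. Same-numbered libraries of the stages deviated together little (r = 0.05, -0.08 and 0.13), which cannot show that there was no pairing. GUCY2C, at 0.03, turned to -0.0061 with library totals alone, -0.35 with limma voom, -0.45 with voom quality weights, -0.045 without a filter and -0.20 with the replicate block. Left-out libraries gave it -0.90 to 0.44. PDE3A turned to -0.13 with voom quality weights and to -0.094 without early luteal replicate 2 (0.51 at most), GUCY1B1 to -0.082 without that library (0.74 at most), and NOS3 to 0.26 without post-ovulatory replicate 2 (-0.77 at the lowest). The cause of these changes was not tested. The depth limits the peptide genes most, with a floor of 3 counts at 0.0969 to 0.407 raw CPM per library.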

Other observations

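A second kinase and channel subunits of the cyclic GMP lists, counted at low levels, were picked out after their values were seen. PRKG2, the second cyclic GMP-dependent kinase, stood at 2.45, 0.252 and 1.18 CPM in post-ovulatory and at 0.257, 0 and 0.133 CPM in early luteal replicates 1, 2 and 3, and did not pass the filter on low counts. CNGA1, CNGA2 and CNGA4 encode subunits of channels that cyclic nucleotides open. CNGA1 stood at 4.31, 2.52 and 2.11 CPM against 1.48, 0 and 0.995 CPM, with the stages apart (log2 fold change -1.78 ± 0.99, SE; adjusted p = 0.718, edgeR's quasi-likelihood test). CNGA2 stood at 4.38, 0.504 and 0.638 against 0.771, 0 and 0.133 CPM and CNGA4 at 0.371, 0.504 and 0.0957 against 0, 0 and 0.0663 CPM, both untested. CNGA3 had means of 3.51 ± 0.356 CPM in post-ovulatory and 3.55 ± 2.65 CPM in early luteal tissue (SD, n = 3), and CNGB3 was at 0 in all 6 libraries.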
